A study of Arabidopsis thaliana with 18 samples.

Results

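The 6 genes described here encode enzymes of polyamine metabolism in Arabidopsis thaliana and were chosen by locus, because each carries a conserved upstream open reading frame (uORF) in its 5' leader. They are the S-adenosylmethionine decarboxylase genes SAMDC1 (AT3G02470), SAMDC2 (AT5G15950) and SAMDC3 (AT3G25570) and the polyamine oxidase genes PAO2 (AT2G43020), PAO3 (AT3G59050) and PAO4 (AT1G65840). They are 6 of the 34212 loci in the deposited tables, the rule that chose them uses no measured value, and all 6 passed the filter on low counts in every comparison. The plants were of 2 genotypes in the Col-0 background, upf1-3 pad4-1 (called the mutant here) and pad4-1 (called the control), so the pad4-1 allele was carried by both. Seedlings of both spent 10 days on medium with 1% sucrose and were then moved to soil at 22 °C with 16 h of light and 8 h of dark, and leaves were harvested at 3 weeks of age. Total RNA, monosomal RNA (bound by 1 ribosome) and polysomal RNA (bound by several) were sequenced after depletion of ribosomal RNA, with 3 biological replicates in each of the 6 groups, 18 libraries in all.

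Polyamines are small positively charged molecules that plants need for growth and stress responses. S-adenosylmethionine decarboxylase makes the aminopropyl donor from which spermidine, spermine and thermospermine are built, and PAO2, PAO3 and PAO4 are peroxisomal oxidases that turn spermine back towards spermidine and putrescine. In Arabidopsis the conserved uORFs of the decarboxylase and oxidase transcripts are known to lower translation of the enzyme when polyamines are abundant, and a uORF can also expose a transcript to nonsense-mediated mRNA decay (NMD), for which the RNA helicase UPF1 is required.

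The starts of the longest uORFs are shown because the uORF is what the 6 genes were chosen for. In the RefSeq annotation of TAIR10.1 the longest uORF had 52 codons in SAMDC1, 52 in SAMDC2, 54 in SAMDC3, 55 in PAO2, 68 in PAO3 and 50 in PAO4. Of the 23586 genes with an annotated 5' UTR, 59.8% have some uORF, and between 4.79% (for the length in PAO3) and 8.69% (for that in PAO4) have one at least as long. The 5' UTRs of the 6 genes are 614, 550, 500, 442, 336 and 415 nt long in the same order, against a median of 194 nt over all genes. The windows below hold 30 bases of the leader around each of these starts, read on the coding strand, and every ATG that opens a uORF there is in capitals.
SAMDC1, chr3:509803-509832, plus strand: gtgaATGagattATGatggagtcgaaaggt
SAMDC2, chr5:5206417-5206446, plus strand: gtgaATGagattATGatggaatcgaaagct
SAMDC3, chr3:9288854-9288883, minus strand: ggtgaATGagaaATGgagactaaaggtggt
PAO2, chr2:17891755-17891784, plus strand: gaagaaaatcgcATGaatttgtttggaagc
PAO3, chr3:21827366-21827395, minus strand: agagaaaatcgcATGaatttttttagaaaa
PAO4, chr1:24489883-24489912, plus strand: acaaaaaaaaaaATGctccgatcacggaat
In the 3 decarboxylase genes the long uORF opens inside a very short one, of 3 codons in SAMDC1, 3 in SAMDC2 and 5 in SAMDC3, which is the first capital ATG of their windows. The windows of SAMDC1 and SAMDC2 are identical at 28 of 30 bases and those of PAO2 and PAO3 at 24 of 30, while PAO4 matches PAO2 at 11 of 30 and PAO3 at 13 of 30. SAMDC3 matches SAMDC1 at 9 of 30 and SAMDC2 at 8 of 30, no more than the 9 to 12 of 30 between decarboxylase and oxidase genes. Windows were compared with the long uORF start in the same place and with no gaps, and the short uORF of SAMDC3 opens nearer to that start than in SAMDC1 and SAMDC2. In PAO2 and PAO3 the long uORF is the only uORF and ends 10 nt and 3 nt before the start of the main reading frame, whereas in PAO4 it ends 125 nt before it and in SAMDC1, SAMDC2 and SAMDC3 it ends 154, 118 and 132 nt before it.

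The libraries held 16325537 to 81528839 estimated counts, of which chloroplast loci took 20.7 to 74.1%. The highest chloroplast shares were in replicate 1 of control polysomal RNA (74.1%) and of control monosomal RNA (59.9%), so results were also computed without that replicate. Levels are given as CPM, that is, counts relative to library size after TMM scaling over all libraries. UPF1 itself (RefSeq symbol LBA1) stood at 43.4, 26.3 and 37.9 CPM in mutant total RNA, against 64.8, 79.1 and 72.3 CPM in control total RNA. In polysomal RNA the highest mutant library (61.6 CPM) lay above all 3 control libraries (45.7 to 49.7 CPM). The summed CPM of 5 leaf mesophyll markers was high in every library, but it was 9322 to 16381 in mutant total RNA and 26655 to 32947 in control total RNA, with no overlap. In the fractions it overlapped between genotypes. The markers in this sum differed. RBCS1A and CAB1 were lower in every mutant than in any control library of total RNA. RCA was at 1215, 1136 and 3524 CPM in mutant and at 3052, 1873 and 1875 CPM in control total RNA. In polysomal RNA RCA was at 2411 to 3712 CPM in the mutant and at 1116 to 1839 CPM in the control. The summed CPM of 4 vascular markers was 70.5 to 92.6 in mutant total RNA and 109 to 131 in control total RNA, and 57.0 to 75.0 in mutant monosomal RNA and 106 to 131 in control monosomal RNA, with no overlap in either. In polysomal RNA the vascular sum was 81.5 to 123 in the mutant and 108 to 129 in the control. The summed CPM of 6 flower and tapetum markers was 1.20 to 2.53 in mutant monosomal RNA and 6.75 to 131 in control monosomal RNA. It overlapped between genotypes in total RNA (0.288 to 2.75 in the mutant, 2.22 to 14.0 in the control). In polysomal RNA it overlapped too (0.484 to 6.86 in the mutant, 2.74 to 36.9 in the control). The summed CPM of 5 genes of the morning phase of the circadian clock (CCA1, LHY, RVE8, PRR9 and RVE1) was 373 to 1025 in mutant monosomal RNA and 7.74 to 21.5 in control monosomal RNA. It was 410 to 910 in mutant polysomal RNA and 3.66 to 11.8 in control polysomal RNA, and 17.5, 20.2 and 289 in mutant total RNA against 4.02, 3.79 and 2.40 in control total RNA. The part of the clock genes, the chloroplast share and the mesophyll, vascular and flower markers in the results below was not tested, and fewer cells of a type cannot be told apart from less RNA per cell.

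PAO4 was higher in the mutant in all 3 kinds of RNA. The counts of SAMDC2 together with the locus numbered next to it were higher in the mutant too, most of all in the ribosome fractions. Most counts of that pair lay in the other locus, not in SAMDC2. No member passed the test as lower in the mutant. In total RNA, 2 of the 6 members were called higher in the mutant at an adjusted p under 0.05 (SAMDC2 and PAO4) and none lower, where 27.8% of 20302 tested genes were called, 15.3% as higher and 12.5% as lower. In monosomal RNA, 1 member (PAO4) was called higher and none lower, where 12.7% of 20895 genes were called, 8.07% as higher and 4.6% as lower. In polysomal RNA, again 1 member (PAO4) was called higher and none lower, where 13.4% of genes were called, 8.34% as higher and 5.04% as lower. With 6 members these counts lie near the share called over all genes and show nothing particular to the group. The median log2 fold change over all genes tested was 0.030, 0.019 and 0.033 in total, monosomal and polysomal RNA.

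**Figure D1:**
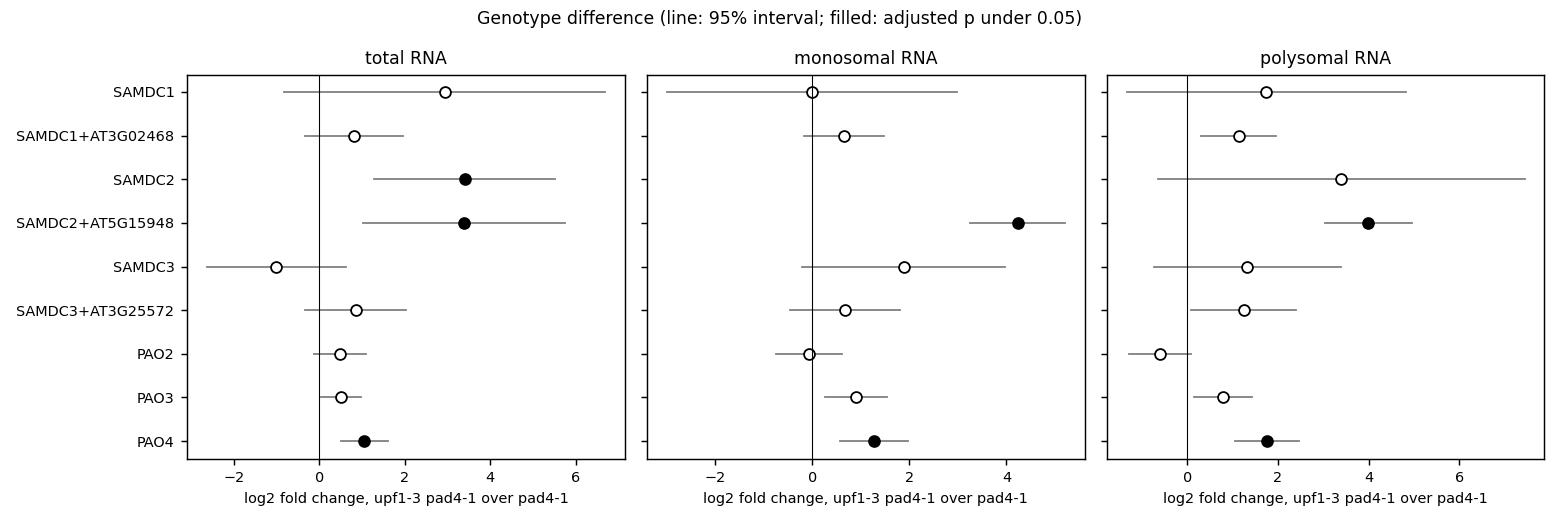
Log2 fold change of the mutant over the control (x axis) for the 6 members and for the decarboxylase genes summed with the locus numbered next to them (y axis) in total, monosomal and polysomal RNA, with lines for 95% intervals and filled points for an adjusted p under 0.05. PAO4 is filled in all 3 panels at 1.05, 1.26 and 1.76, and SAMDC2 alone is not drawn for monosomal RNA because its control libraries held almost no counts.

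The decarboxylase genes are described before the oxidase genes, and their counts need a caution. Each of SAMDC1, SAMDC2, SAMDC3 and PAO2 has in the tables a locus numbered next to it (AT3G02468, AT5G15948, AT3G25572 and AT2G43018) that the RefSeq annotation used here does not hold. It is called the adjacent locus here by its number alone, since its position was not available. Annotations of Arabidopsis are known to list some conserved uORFs as loci of their own, but what these 4 loci are was not established here, and how the authors' counting divided reads among overlapping transcripts is not given in the sources used here. Levels of the 4 members are therefore uncertain where the adjacent locus could take their reads, and each is given alone and summed with it. The sums were chosen after seeing the data.

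SAMDC1 was the member with the highest and the most erratic level. It stood at 11.0, 917 and 864 CPM in mutant total RNA, against 214, 8.70 and 10.3 CPM in control total RNA. Monosomal levels were 352, 62.7 and 22.6 CPM in the mutant, against 284, 143 and 13.4 CPM in the control. Polysomal levels were 226, 9.80 and 657 CPM in the mutant, against 266, 1.95 and 11.9 CPM in the control. The libraries of both genotypes overlapped in each kind of RNA. Over the 18 libraries SAMDC1 spanned 469-fold, and the order of its 6 group means, from 597 CPM in mutant total RNA to 77.6 CPM in control total RNA, holds no neighbouring pair whose libraries do not overlap.

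In total RNA the adjacent locus AT3G02468 was lowest, within each genotype, where SAMDC1 was highest. It stood at 224, 54.6 and 66.2 CPM in mutant total RNA, against 165, 356 and 436 CPM in control total RNA. SAMDC1 held between 1.09% and 97.2% of the counts of this pair in a library, with more than 50% in 9 of 18 libraries and less than 10% in 8. The sum of both was far steadier than either: it spanned 6.08-fold over the 18 libraries, and the SD of its log2 level within a group ran from 0.16 to 1.16, against 1.97 to 3.59 for SAMDC1 alone.

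The SAMDC1 sum was 235, 971 and 930 CPM in mutant total RNA, against 379, 365 and 447 CPM in control total RNA. It was 410, 250 and 323 CPM in mutant monosomal RNA, against 299, 170 and 160 CPM in control monosomal RNA. In polysomal RNA it was 261, 402 and 681 CPM in the mutant, against 274, 178 and 180 CPM in the control. Mutant libraries lay mostly above the control ones in all 3 kinds of RNA, with 1 or more overlapping libraries in each. The log2 fold change of the sum was 0.82 (SE 0.50, adjusted p = 0.248, edgeR) in total RNA, 0.65 (SE 0.39, adjusted p = 0.300) in monosomal RNA and 1.13 (SE 0.39, adjusted p = 0.0695) in polysomal RNA, and none of these passed the test. Without replicate 1 of the mutant the value in total RNA was 1.24 (adjusted p = 0.0148). In polysomal RNA the value without replicate 1 of the mutant was 1.41 (adjusted p = 0.0263), without replicate 1 of both control fractions 1.33 (adjusted p = 0.0467), and without replicate 3 of the mutant 0.67 (adjusted p = 0.358). The polysomal value was also called under DESeq2 (1.14, adjusted p = 0.0182), under scaling by library totals (1.53, adjusted p = 0.0149) and with no low-count filter (1.13, adjusted p = 0.0324), and the monosomal value under library totals (1.31, adjusted p = 0.0281). SAMDC1 alone gave 2.93 (SE 1.63, adjusted p = 0.208) in total RNA, -0.0038 (SE 1.41, adjusted p = 1) in monosomal RNA and 1.74 (SE 1.45, adjusted p = 0.502) in polysomal RNA, and the last was 5.46 (adjusted p = 0.0473) without replicate 1 of control polysomal RNA.

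**Figure D2:**
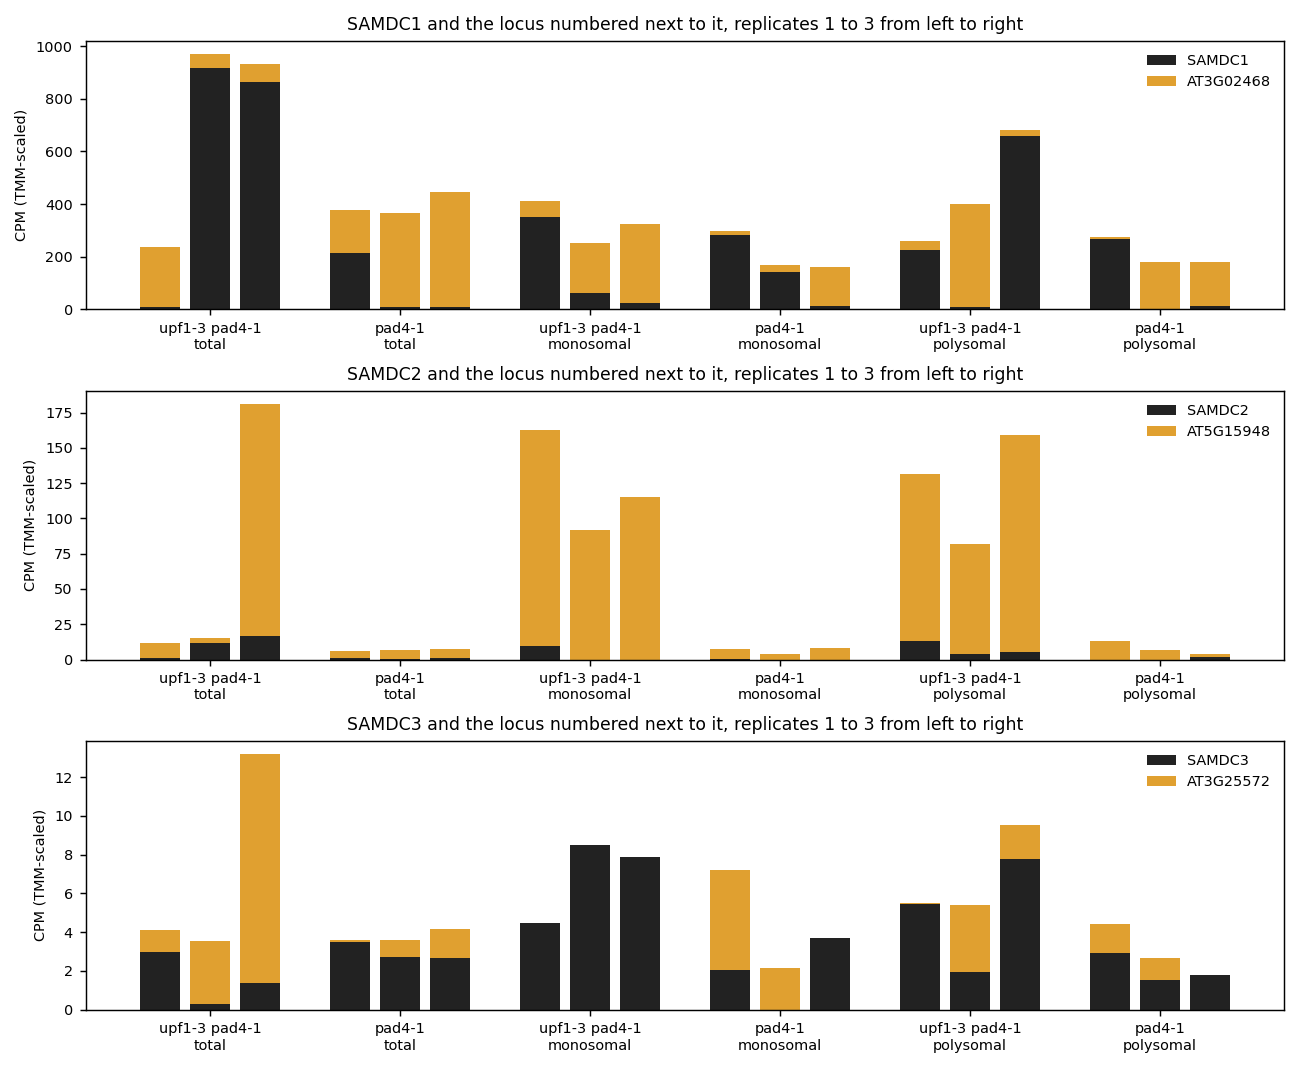
Stacked CPM in each of the 18 libraries (y axis) of SAMDC1, SAMDC2 and SAMDC3 (dark) and of the locus numbered next to each (light), by group along the x axis with replicates 1 to 3 from left to right. The dark share of the SAMDC1 bars runs from 1.09% to 97.2%, and the SAMDC2 bars are tall in the mutant monosomal and polysomal libraries and in replicate 3 of mutant total RNA.

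SAMDC2, another decarboxylase gene, was nearly silent as its own locus in control leaves. It stood at 0.904, 11.5 and 16.9 CPM in mutant total RNA, against 0.812, 0.631 and 1.28 CPM in control total RNA, so replicate 1 of the mutant lay among the controls. Monosomal levels were 9.61, 0 and 0 CPM in the mutant, against 0.0594, 0 and 0 CPM in the control, and polysomal levels were 13.2, 4.08 and 5.11 CPM in the mutant, against 0, 0 and 2.14 CPM in the control. A library with no count allows up to 3 counts, which is 0.0609 to 0.188 CPM in the 6 libraries at 0, and this limit covers counting error only. The log2 fold change in total RNA was 3.40 (SE 0.91, adjusted p = 0.0292). This call ended without replicate 1, 2 or 3 of the control (adjusted p = 0.113, 0.107 and 0.0767) and without replicate 3 of the mutant (2.74, adjusted p = 0.0553). It also ended under limma-voom (adjusted p = 0.174) and with a replicate block in the fit (adjusted p = 0.0672). In polysomal RNA the log2 fold change was 3.39 (SE 1.91, adjusted p = 0.277), and in monosomal RNA, where the control held 2 rounded counts in all, the adjusted p was 0.0829.

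Most counts of this pair lay in AT5G15948, which the tables number next to SAMDC2, and the pair was much higher in the mutant fractions. SAMDC2 held a median of 5.44% of the pair's counts. The sum stood at 163, 91.6 and 115 CPM in mutant monosomal RNA, against 7.46, 4.22 and 8.17 CPM in control monosomal RNA. Polysomal levels were 132, 81.8 and 159 CPM in the mutant, against 13.5, 6.45 and 4.11 CPM in the control. No library of either genotype overlapped with the other in either fraction.

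The sum of SAMDC2 and AT5G15948 rose by a log2 fold change of 4.23 (SE 0.46, adjusted p = 5.57e-05) in monosomal RNA and of 3.99 (SE 0.45, adjusted p = 6.27e-05) in polysomal RNA, which are 18.7-fold and 15.9-fold. AT5G15948 alone had 4.19 (SE 0.55, adjusted p = 0.000205) and 4.04 (SE 0.54, adjusted p = 0.000193). SAMDC2 alone was called in neither fraction in the chosen fit, so the values of the sum mostly describe AT5G15948. Both calls of the sum held in all alternatives run, with log2 fold changes of 3.97 to 4.86 and of 3.68 to 4.59. In total RNA the sum was 11.8, 15.2 and 181 CPM in the mutant, against 5.98, 6.46 and 7.23 CPM in the control. All 3 mutant libraries lay above the controls there, and replicate 3 stood apart from the other two. The log2 fold change was 3.38 (SE 1.02, adjusted p = 0.0429) and came down to 1.01 (adjusted p = 0.0236) without replicate 3 of the mutant. The call ended without replicate 1, 2 or 3 of the control (adjusted p = 0.144, 0.129 and 0.12), under limma-voom (adjusted p = 0.132) and with a replicate block (adjusted p = 0.0963). Replicate 3 of mutant total RNA was also the library with the high sum of morning clock genes (289 CPM, against 17.5 and 20.2 CPM in replicates 1 and 2), and the mutant fractions, where the pair was high, had 373 to 1025 CPM of them.

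**Figure D3:**
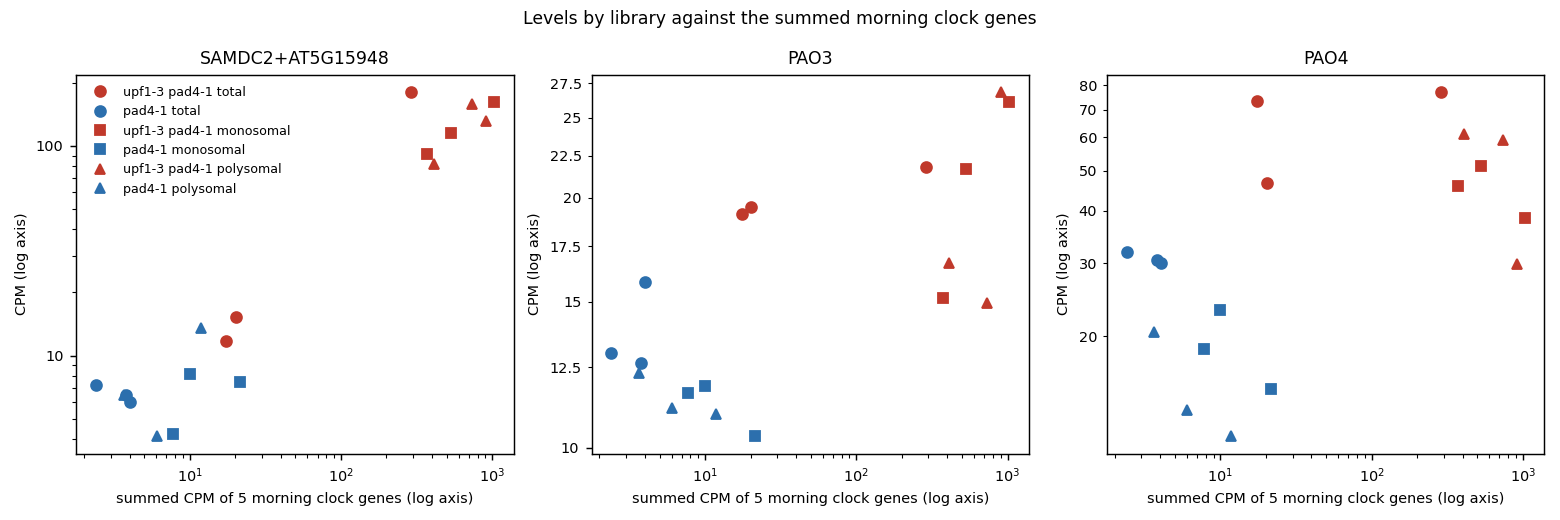
CPM of SAMDC2 summed with AT5G15948, of PAO3 and of PAO4 (y axes, log scale) against the summed CPM of 5 morning clock genes (x axis, log scale), with 1 point per library, mutant libraries in red and control libraries in blue. In the first panel the 7 libraries with the highest morning sums, all of the mutant, lie between 81.8 and 181 CPM. The other 11 lie between 4.11 and 15.2 CPM. In replicates 1 and 2 of mutant total RNA, PAO3 is at 19.1 and 19.5 CPM and PAO4 at 73.5 and 46.6 CPM. The morning sums of these libraries are 17.5 and 20.2 CPM, against 2.40 to 4.02 CPM in control total RNA. Pearson correlations with the morning sum (log2 values, 18 libraries) are 0.97, 0.71 and 0.57 from left to right. The part of the clock genes was not tested.

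SAMDC3, a further decarboxylase gene, was low throughout. It stood at 2.96, 0.274 and 1.38 CPM in mutant total RNA, against 3.51, 2.71 and 2.65 CPM in control total RNA. Monosomal levels were 4.47, 8.52 and 7.90 CPM in the mutant, against 2.05, 0 and 3.71 CPM in the control, and polysomal levels were 5.48, 1.96 and 7.79 CPM in the mutant, against 2.94, 1.53 and 1.77 CPM in the control. The mutant libraries lay above all control libraries in monosomal RNA only, and none of the 3 differences passed the test: the log2 fold changes were -1.01 (SE 0.70, adjusted p = 0.308), 1.88 (SE 0.99, adjusted p = 0.229) and 1.32 (SE 0.97, adjusted p = 0.432) in total, monosomal and polysomal RNA. Summed with AT3G25572, which held 0 counts in all 3 mutant monosomal libraries, the values were 0.84 (adjusted p = 0.247), 0.68 (adjusted p = 0.443) and 1.24 (adjusted p = 0.150), so the sign in total RNA turned.

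The oxidase genes were measured with less spread. PAO4 was higher in the mutant in all 3 kinds of RNA. It stood at 73.5, 46.6 and 77.2 CPM in mutant total RNA, against 30.1, 30.6 and 32.0 CPM in control total RNA. Monosomal levels were 38.4, 45.8 and 51.4 CPM in the mutant, against 15.0, 18.6 and 23.2 CPM in the control. Polysomal levels were 29.9, 61.2 and 59.3 CPM in the mutant, against 11.5, 20.5 and 13.3 CPM in the control. In each kind of RNA the lowest mutant library lay above the highest control library, as it did for 25.3%, 16.3% and 20.8% of all genes tested in total, monosomal and polysomal RNA.

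PAO4 rose by a log2 fold change of 1.05 (SE 0.24, adjusted p = 0.0167) in total RNA, which is 2.07-fold, with means of 65.8 ± 16.7 CPM in the mutant and 30.9 ± 0.976 CPM in the control (SD, n = 3 each). It rose by 1.26 (SE 0.33, adjusted p = 0.0204) in monosomal RNA, which is 2.40-fold, with means of 45.2 ± 6.52 CPM in the mutant and 18.9 ± 4.12 CPM in the control. It rose by 1.76 (SE 0.34, adjusted p = 0.00262) in polysomal RNA, which is 3.39-fold, with means of 50.1 ± 17.5 CPM in the mutant and 15.1 ± 4.73 CPM in the control. The polysomal call held in all alternatives run. The call in total RNA ended without replicate 1, 2 or 3 of the control (adjusted p = 0.0679, 0.0718 and 0.062), at values of 1.05 to 1.07. The call in monosomal RNA ended without replicate 1 or 2 of control monosomal RNA (adjusted p = 0.067 and 0.0705), without replicate 1 of both control fractions (adjusted p = 0.053) and without replicate 3 of mutant monosomal RNA (adjusted p = 0.0575), at values of 1.13 to 1.25. The annotated 3' end of PAO4 overlaps AT1G65845 on the opposite strand by 67 nt, and whether counting used the strand of the reads is not given in the sources used here.

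PAO3 was also above the control in every mutant library, by less. It stood at 19.1, 19.5 and 21.8 CPM in mutant total RNA, against 15.8, 12.6 and 13.0 CPM in control total RNA. Monosomal levels were 26.1, 15.2 and 21.7 CPM in the mutant, against 10.3, 11.6 and 11.9 CPM in the control, and polysomal levels were 26.9, 16.7 and 14.9 CPM in the mutant, against 11.0, 12.3 and 11.2 CPM in the control. None of the 3 differences passed the test after adjustment: the log2 fold changes were 0.50 (SE 0.20, adjusted p = 0.0956), 0.90 (SE 0.30, adjusted p = 0.0582) and 0.79 (SE 0.30, adjusted p = 0.0972) in total, monosomal and polysomal RNA. In monosomal RNA it was called under DESeq2 (0.87, adjusted p = 0.0475), under scaling by library totals (1.48, adjusted p = 0.033) and without replicate 2 of mutant monosomal RNA (1.09, adjusted p = 0.0489).

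PAO2 was called in no kind of RNA. It stood at 47.7, 78.1 and 47.6 CPM in mutant total RNA, against 37.9, 36.6 and 45.9 CPM in control total RNA, and all mutant libraries lay above the controls. Monosomal levels were 24.9, 42.4 and 28.1 CPM in the mutant, against 22.6, 41.9 and 36.0 CPM in the control. Polysomal levels were 16.4, 29.3 and 21.4 CPM in the mutant, against 26.9, 35.2 and 41.9 CPM in the control, where only the highest mutant library reached into the control range. The log2 fold changes were 0.49 (SE 0.26, adjusted p = 0.198), -0.064 (SE 0.32, adjusted p = 0.924) and -0.60 (SE 0.32, adjusted p = 0.255) in total, monosomal and polysomal RNA, and none passed the test. AT2G43018, the locus numbered next to PAO2, was at 0 CPM in 16 of 18 libraries.

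**Figure D4:**
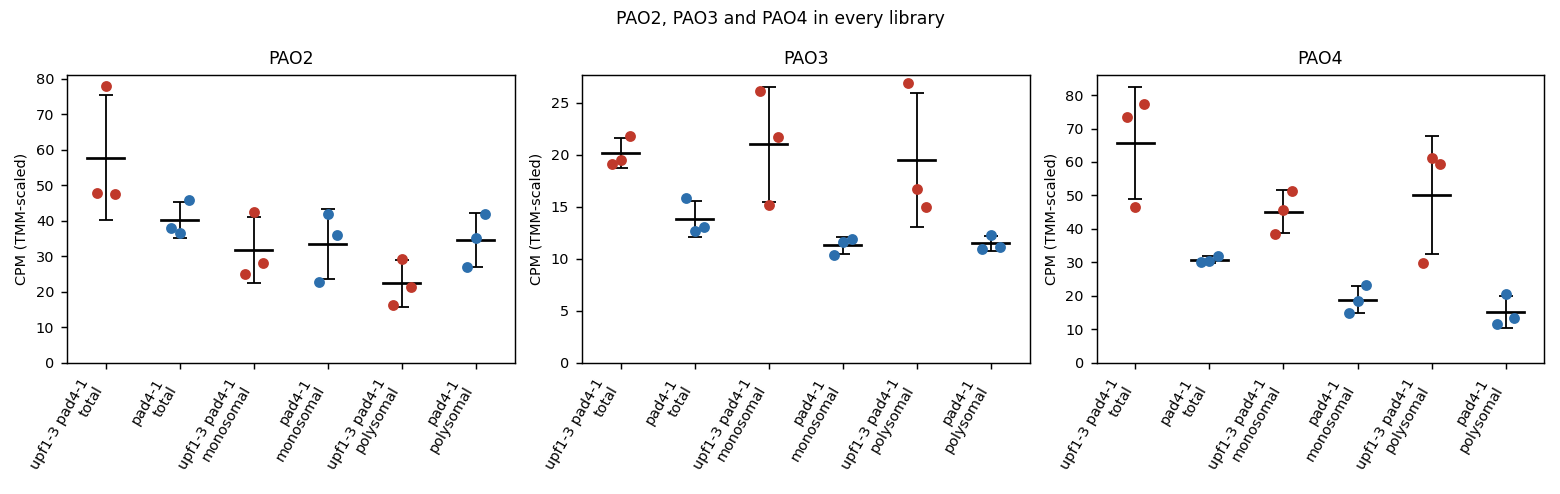
CPM of PAO2, PAO3 and PAO4 (y axes) in the 18 libraries by group (x axis), with the mutant in red and the control in blue, 1 point per library, and black bars for the mean and SD of 3 libraries. Mutant points lie above all control points of the same kind of RNA for PAO3 and PAO4, while for PAO2 they do so in total RNA alone.

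In the order of group means, PAO4 ran from mutant total RNA (65.8 CPM) over mutant polysomal (50.1 CPM), mutant monosomal (45.2 CPM), control total (30.9 CPM) and control monosomal (18.9 CPM) to control polysomal RNA (15.1 CPM). Its libraries overlapped among the 3 mutant groups and between the control fractions, and separated at both steps around control total RNA. PAO3 had its 3 mutant groups, which overlapped each other (19.5 to 21.0 CPM), above control total RNA (13.8 CPM), with an overlap between mutant polysomal and control total RNA. The libraries of control total RNA did not overlap with those of the next group, control polysomal RNA (11.5 CPM). PAO2 had its highest mean in mutant total RNA (57.8 CPM), separate from control total RNA (40.2 CPM), and the lower 5 groups down to mutant polysomal RNA (22.4 CPM) overlapped from each to the next. Per kilobase of the longest RefSeq transcript, the SAMDC1 sum was the highest of the 6 in control total RNA at 203 ± 22.4 CPM per kb, followed by PAO2 (19.0 ± 2.37), PAO4 (13.7 ± 0.432), PAO3 (6.78 ± 0.859), the SAMDC2 sum (3.49 ± 0.334) and the SAMDC3 sum (2.17 ± 0.192; SD, n = 3). In mutant monosomal and polysomal RNA the SAMDC2 sum took the second place, at 65.5 ± 19.3 and 66.0 ± 20.8 CPM per kb. SAMDC2 alone was at 1.70 ± 2.95 and 3.97 ± 2.66 CPM per kb there. Each sum was divided by the transcript length of the member, since the length of the adjacent locus is not known here. The place of the SAMDC2 sum therefore cannot be read as a level of SAMDC2 itself.

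No member was called between ribosome fractions, except SAMDC2 in the control when no low-count filter was used. In polysomal against monosomal RNA of the mutant, 0 of 6 members were called, where 1.11% of 20895 genes were called, and in the control 0 of 6, where 0.33% were called. Under an unadjusted p of 0.05 the count of members was also 0 in both. In the mutant PAO2 averaged 22.4 ± 6.51 CPM in polysomal and 31.8 ± 9.30 CPM in monosomal RNA (SD, n = 3 each), a log2 fold change of -0.50 with a 95% interval of -1.19 to 0.19. PAO4 averaged 50.1 ± 17.5 CPM in polysomal and 45.2 ± 6.52 CPM in monosomal RNA of the mutant, a log2 fold change of 0.16 with an interval of -0.52 to 0.85. In the control the log2 fold changes were 0.037 for PAO2 (interval -0.65 to 0.72), 0.013 for PAO3 (interval -0.62 to 0.65) and -0.33 for PAO4 (interval -1.03 to 0.36). For the SAMDC1 sum the values were 0.47 in the mutant (interval -0.36 to 1.30) and -0.013 in the control (interval -0.84 to 0.81), and for the SAMDC2 sum 0.019 in the mutant (interval -0.83 to 0.87) and 0.25 in the control (interval -0.62 to 1.12). SAMDC2 alone stood at 0, 0 and 2.14 CPM in polysomal and at 0.0594, 0 and 0 CPM in monosomal RNA of the control, a fitted log2 fold change of 4.74 (interval -0.49 to 9.97, adjusted p = 0.445) that rests on 1 polysomal library and was called with no low-count filter (4.74, adjusted p = 0.00332). In the mutant its log2 fold change was 1.20 (interval -2.47 to 4.88).

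The genotypes were then compared in these ratios. For the polysome to monosome ratio 0 of 6 members were called, where 0% of 20895 genes were called. Over all genes edgeR gave 493 at an unadjusted p under 0.05 (2.36%), DESeq2 called 2 genes and limma-voom 0. For the polysome to total ratio 0 of 6 members were called, where 0% of 21905 genes were called, 1508 genes (6.88%) had an unadjusted p under 0.05, DESeq2 called 57 and limma-voom 2. PAO2 was the only member under an unadjusted p of 0.05: its polysome to total ratio differed by -1.16 on the log2 scale between the mutant and the control (SE 0.43, unadjusted p = 0.0147, adjusted p = 0.583), with means of 22.4 CPM in polysomal and 57.8 CPM in total RNA of the mutant against 34.7 CPM in polysomal and 40.2 CPM in total RNA of the control. The same difference was 0.22 (SE 0.38) for PAO3 and 0.64 (SE 0.42) for PAO4. The table of total RNA and that of the fractions were deposited separately, with the raw estimated counts in each, and were scaled together for this comparison. Within the mutant the morning clock sum was 410 to 910 CPM in polysomal RNA and 17.5, 20.2 and 289 CPM in total RNA. In the control it was 3.66 to 11.8 CPM in polysomal RNA and 2.40 to 4.02 CPM in total RNA. The part of the clock genes in the ratios to total RNA was not tested.

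The genes most like each member were those with the highest Pearson correlation of log2 CPM over the 18 libraries, among expressed genes with a symbol. The points share libraries, depth and genotype, so these values only describe the pattern. PAO4 was most like FBA7 (0.95), BIO1 (0.93) and RBL6 (0.93), and PAO3 most like GT72B1 (0.94), VTC2 (0.89) and BAM1 (0.89). PAO2 was most like CLH1 (0.82), MFP2 (0.80) and GlcNAc1pUT2 (0.79). The SAMDC2 sum was most like GBSS1 (0.98), which encodes a starch synthase, SPD1 (0.97) and the clock gene CCA1 (0.96), while SAMDC2 alone was most like RBOHD (0.83), HGL1 (0.82) and RFR1 (0.81). The SAMDC1 sum was most like alpha-ADR (0.88), HRS1 (0.86) and ABCB28 (0.84), and SAMDC1 alone reached 0.77 with P5CS2, 0.73 with TLP10 and 0.73 with SFP1. SAMDC3 alone reached 0.77 with ARF11, 0.76 with PLC8 and 0.73 with RIBA3.

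Around the 6 genes, 46 other genes of polyamine metabolism were followed in 4 lists, of which 43 were tested in total RNA and 44 in the fractions. In total RNA 2 were called higher in the mutant and 7 lower (median log2 fold change -0.058), in monosomal RNA 2 higher and 4 lower (median -0.25), and in polysomal RNA 3 higher and 6 lower (median -0.15). That is 9 of 43, 6 of 44 and 9 of 44 genes called, where 27.8%, 12.7% and 13.4% of all genes tested were called in total, monosomal and polysomal RNA. By direction, 15.3%, 8.07% and 8.34% of all genes were called higher in the same order. Called lower were 12.5%, 4.6% and 5.04% of all genes. The lists were chosen with earlier results of these data known, so nothing particular to them is concluded from these counts. The list of other synthesis genes, with all 9 members tested, had 0 higher and 3 lower in total RNA, 0 higher and 2 lower in monosomal RNA and 1 higher and 3 lower in polysomal RNA. No gene of the 4 lists was called between polysomal and monosomal RNA or in either difference of ratios.

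The spermidine synthase genes SPDS1 and SPDS2, whose enzymes use the product of the decarboxylases, were lower in the mutant, with SPDS1 called in total and polysomal RNA only. SPDS2 averaged 16.8 ± 2.38 CPM in mutant total RNA and 37.1 ± 0.196 CPM in control total RNA (SD, n = 3 each), a log2 fold change of -1.19 (SE 0.19, adjusted p = 0.00474) that held without any single library. Its values in monosomal and polysomal RNA were -0.96 and -1.10, and SPDS1 had -0.94 in total and -1.30 in polysomal RNA, and -0.99 (adjusted p = 0.0565, not called) in monosomal RNA. ACL5, the thermospermine synthase gene, had -1.57 in total, -1.22 in monosomal and -1.37 in polysomal RNA, the last named after its value was seen. The gene is known for its expression in developing xylem, and the vascular marker sums given above were lower in the mutant in total and monosomal RNA. Their part in its values was not tested. ADC1, an arginine decarboxylase gene at the entry of the pathway, was higher in polysomal RNA (1.19). Among the oxidation genes, the copper amine oxidase family locus AT1G31690 had the strongest fall: it averaged 12.3 ± 3.65 CPM in mutant monosomal RNA and 144 ± 31.6 CPM in control monosomal RNA (SD, n = 3 each), a log2 fold change of -3.54 (SE 0.36, adjusted p = 4.16e-05). It had -2.47 in total and -3.29 in polysomal RNA, and it lies in a tandem array of similar genes whose reads may be shared. The related loci AT3G43670 (-1.46 in monosomal and -1.63 in polysomal RNA) and AT2G42490 (0.87 in polysomal RNA) were also called.

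In the list of S-adenosylmethionine supply and salvage, the synthetase gene MTO3 averaged 226 ± 42.4 CPM in mutant total RNA and 550.2 ± 20.9 CPM in control total RNA (SD, n = 3 each), a log2 fold change of -1.32 (SE 0.24, adjusted p = 0.00792). The synthetase gene SAM-2 had -0.80 in total and -0.97 in polysomal RNA, and ARD4, an acireductone dioxygenase gene of the salvage cycle, was higher in all 3 kinds of RNA (1.15, 1.33 and 1.03 in total, monosomal and polysomal RNA). In the list of transport, conjugation and arginine use, the polyamine uptake transporter gene PUT1 was higher in total RNA (2.36) and PUT4 in monosomal RNA (1.80), and the N-acetyltransferase gene AT2G39020 (NATA2) was lower in total RNA (-1.19). Of these 24 calls, 7 held without each single library: SPDS2, MTO3, PUT1 and AT2G39020 in total RNA and AT1G31690 in all 3 kinds of RNA. The other 17 ended without at least 1 library. In total RNA, SPDS1 ended without any 1 of the 3 control libraries (adjusted p = 0.0624, 0.051 and 0.0527), ACL5 and SAM-2 without any 1 of them or replicate 1 of the mutant (adjusted p of 0.0894 to 0.126 and of 0.0606 to 0.109), and ARD4 without replicate 2 or 3 of the control (adjusted p = 0.0794 and 0.0707). In monosomal RNA, ARD4 ended without replicate 3 of the mutant (adjusted p = 0.0519), PUT4 without that library or any 1 control library (0.0518 to 0.0786), SPDS2 without replicate 2 or 3 of the control or any 1 mutant library (0.0578 to 0.112), AT3G43670 without replicate 1 or 2 of the control or any 1 mutant library (0.0544 to 0.173), and ACL5 without any 1 of 8 libraries (0.0521 to 0.144). In polysomal RNA, SPDS1 ended without replicate 2 of the control or 3 of the mutant (adjusted p = 0.0587 and 0.074), ACL5 without replicate 3 of either genotype (0.0911 and 0.11), SPDS2 without replicate 3 of the control or 2 or 3 of the mutant (0.053 to 0.0611), and ADC1 without any 1 control library or replicate 3 of the mutant (0.0528 to 0.137). AT3G43670 ended there without replicate 1 or 2 of the control or 2 or 3 of the mutant (adjusted p of 0.0507 to 0.0751), SAM-2 without replicate 2 or 3 of either genotype (0.0979 to 0.139), AT2G42490 without any 1 of 6 libraries (0.0551 to 0.178) and ARD4 without any 1 of 8 (0.05 to 0.143).

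**Figure D5:**
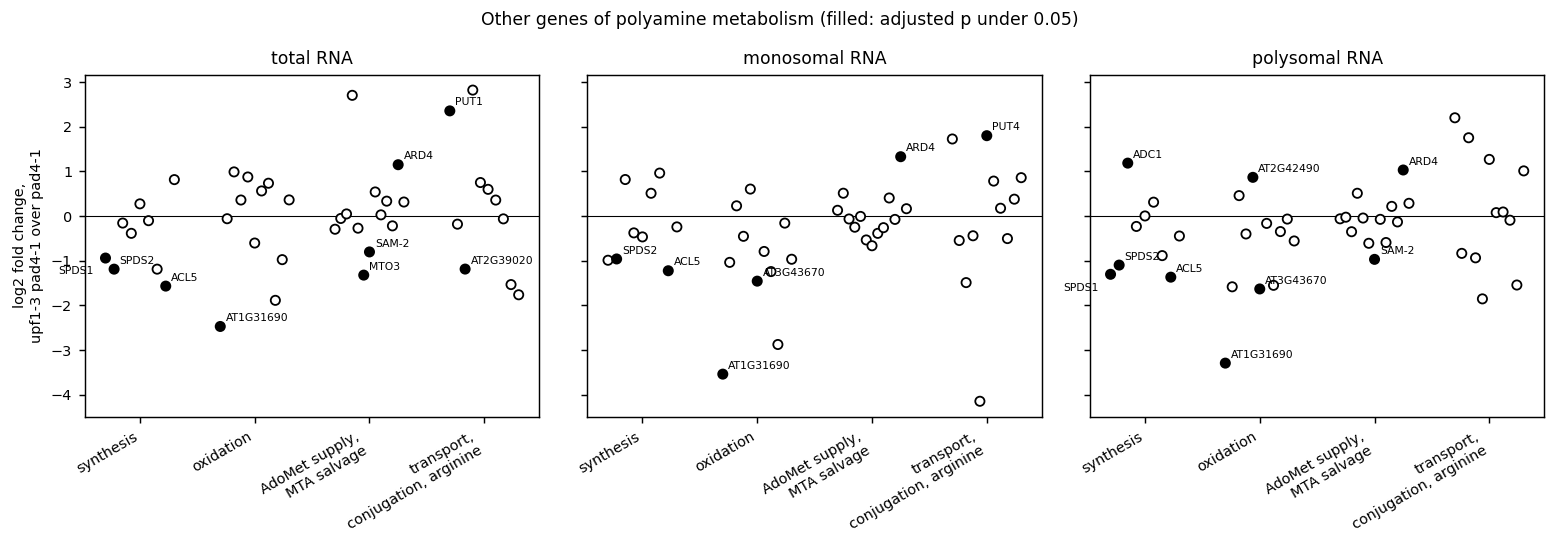
Log2 fold change of the mutant over the control (y axis) of the tested genes in 4 lists of polyamine metabolism (x axis) in total, monosomal and polysomal RNA, with 1 point per gene and filled, named points for an adjusted p under 0.05. Called synthesis genes lie below 0 except ADC1 in polysomal RNA, and AT1G31690 is the lowest called point in all 3 panels.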

How the data were processed

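Single-end, strand-specific libraries were made after ribosomal RNA depletion, per the labels' protocols. The deposited values are expected counts (estimated counts per locus, not whole numbers), 1 table for total RNA and 1 for both fractions. The submitters' processing notes name kallisto 0.43.0, limma and TAIR10 with no role, and how estimates were summed per locus is not given in the sources used here. The values were rounded and tested with edgeR 4.0.16 (R 4.3.3; quasi-likelihood test, two-sided, TMM scaling, filterByExpr with a count minimum of 10, Benjamini-Hochberg adjustment over all genes tested). Separate fits were made for total RNA (6 libraries, residual df 4), for both fractions (12 libraries, residual df 8) and for the polysome to total ratio (18 libraries, residual df 12). Intervals of log2 fold changes are the t quantile times the SE. P-values measure the spread between the labels' biological replicates. Alternatives used RLE scaling, library totals, no filter, DESeq2 1.42.0, limma-voom (limma 3.58.1), organelle and rRNA loci left out, a replicate block and each library left out. The members, lists and tests were chosen with earlier results of these data known. Named were the 6 members, the loci numbered next to them, up to 3 called genes per list and comparison, the 3 genes most like each member, UPF1 and PAD4 (PAD4 stood at 3.94, 42.8 and 4.66 CPM in mutant total RNA and at 1.87, 1.38 and 1.36 CPM in control total RNA). A planned sum with annotated uORF loci was replaced by the sum with the adjacent locus, since the reference annotates none. Deviations of same-numbered libraries from their group means had every r over 0.1 (0.134 to 0.220) only between mutant polysomal and mutant monosomal RNA, of the pairs of groups compared. Between the control fractions r was 0.306 in replicate 1, 0.051 in replicate 2 and 0.091 in replicate 3. Gene names, transcripts and leader sequences came from RefSeq TAIR10.1. No 2 libraries of a group were identical. The fit was also run on simulated counts, with no outcome given here. They were drawn for each gene independently with the dispersions of the fit itself, so that run cannot speak to reads shared between loci.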

Additional observations from a re-analysis of the deposited data

Results flagged for a closer look

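PAO2 lay on opposite sides of the control in total and polysomal RNA. Every mutant library lay above the control mean in total RNA (47.7, 78.1 and 47.6 CPM in the mutant, against a control mean of 40.2 CPM), and every mutant library lay below it in polysomal RNA (16.4, 29.3 and 21.4 CPM in the mutant, against a control mean of 34.7 CPM). The polysome to total ratio differed by -1.16 on the log2 scale between the mutant and the control, with an unadjusted p of 0.0147 and an adjusted p of 0.583 (edgeR), so the difference did not pass the test. It kept its sign in all 27 alternatives to the chosen fit, with values of -1.40 to -0.58 and adjusted p-values of 0.286 to 1.00. Within the mutant the morning clock sum was 410 to 910 CPM in polysomal RNA and 17.5, 20.2 and 289 CPM in total RNA. PAO2 summed with AT2G43018 had a Pearson correlation of -0.50 with the morning clock sum (log2 values, 18 libraries). The part of the clock genes in the difference of the PAO2 ratio was not tested.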

How the results depend on the processing

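For the members and their sums, 51 results were recomputed under 1035 alternatives, and 57 of these turned the sign, in 19 results of which 0 had been called. The calls of PAO4 in polysomal RNA and of the SAMDC2 sum in both fractions held throughout, and those that ended are given beside their values above. SAMDC2 held 0 to 78.1 counts in control libraries, where depth limits its values, and 0 to 932 in mutant libraries. Scaling by library totals moved the median of all genes by -0.16, 0.60 and 0.44 in total, monosomal and polysomal RNA, by -0.14 and -0.30 for the fractions of the control and the mutant, and by -0.16 and 0.68 for the ratios to monosomal and total RNA, while RLE scaling moved none by over 0.1. DESeq2 gave no adjusted p for SAMDC1 and the SAMDC2 sum between genotypes in total RNA or for SAMDC2 and SAMDC3 in the polysome to total difference. The cause of the changes below was not tested.

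Counts of called genes moved as follows. Leaving out single libraries gave 2047 to 6109 genes in total RNA, 1378 to 2887 in monosomal and 1418 to 3152 in polysomal RNA between genotypes. Between fractions it gave 5 to 386 in the mutant (231 with all) and 2 to 140 in the control (69 with all), and 0 to 97 for the polysome to total ratio. In the mutant fractions the count was 8 under library totals, 797 with no filter, 763 under DESeq2, 360 under limma-voom and 624 with a replicate block within genotype, where the numbers pair the libraries and again 0 members were called. In the control fractions it was 0 under library totals, 577 with no filter, 493 under DESeq2, 33 without organelle and rRNA loci, 200 with a replicate block and 481 with the block within genotype. The polysome to monosome difference had 48 with no filter and 2 under DESeq2. The polysome to total difference had 3 under library totals, 72 with no filter, 57 under DESeq2 and 2 under limma-voom. Across genotypes the numbers do not pair the libraries, and with the replicate block SAMDC2 in total RNA (2.80, adjusted p = 0.0672) and its sum (2.13, adjusted p = 0.0963) were not called, nor under limma-voom (adjusted p = 0.174 and 0.132). With no filter SAMDC1 alone was called in polysomal RNA (adjusted p = 7.33e-05), SAMDC2 in both fractions (adjusted p = 1.19e-07 and 0.00178) and SAMDC3 in monosomal RNA (adjusted p = 0.0497), beside the SAMDC1 sum in polysomal RNA and SAMDC2 between control fractions, given above. Under library totals SAMDC2 was called in monosomal RNA (adjusted p = 0.0443) and the SAMDC3 sum in polysomal RNA (1.74, adjusted p = 0.0424), and without replicate 3 of mutant monosomal RNA SAMDC2 was called there (adjusted p = 0.0456).

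The log2 values that changed sign were these. Under library totals: 0.72 for SAMDC1 and 0.49 for PAO2 between genotypes in monosomal RNA, -0.077 for SAMDC3, -0.086 for PAO2 and -0.13 for PAO3 between control fractions, -0.20 for PAO4 between mutant fractions, and 0.41 for SAMDC2 in the polysome to total difference. With no filter, SAMDC1 between genotypes in monosomal RNA was 0.0051. Under limma-voom, SAMDC2 was 4.15 in the polysome to monosome and 3.42 in the polysome to total difference. With the replicate block within genotype, SAMDC1 was -0.033 between mutant fractions and SAMDC2 2.82 in the polysome to monosome difference. Summed with the adjacent locus, SAMDC1 was 0.65 between genotypes in monosomal RNA and 0.24 in the polysome to total difference, SAMDC2 0.55 in that difference too, SAMDC3 0.84 between genotypes in total RNA, -0.58 between control fractions and 0.56 in the polysome to monosome difference, and PAO2 -0.061 between control fractions.

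Leaving out single libraries gave sign changes in these ranges. Between genotypes in monosomal RNA they were -1.78 to 0.92 for SAMDC1, -2.89 to 10.03 for SAMDC2, whose fitted value depends on the prior count, and -0.33 to 0.12 for PAO2, and in total RNA -0.018 to 1.18 for the SAMDC3 sum. Between mutant fractions they were -0.34 to 2.82 for SAMDC1, -0.39 to 0.086 for PAO3 and -0.0033 to 0.44 for PAO4. Between control fractions they were -4.42 to 0.22 for SAMDC1, -3.05 to 8.43 for SAMDC2, -0.46 to 0.99 for SAMDC3, -0.18 to 0.24 for PAO2 and -0.050 to 0.054 for PAO3. In the polysome to monosome difference they were -7.23 to 6.28 for SAMDC2 and -0.40 to 0.074 for PAO3, and in the polysome to total difference -4.31 to 2.49 for SAMDC1, -0.76 to 7.99 for SAMDC2 and -0.092 to 0.38 for PAO3.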

Other observations

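The division of counts between SAMDC3 and the locus numbered next to it also varied among libraries. SAMDC3 held 100% of the pair's counts in all 3 mutant monosomal libraries and between 0 and 100% in the 3 control monosomal libraries, with a median of 74.1% over the 18 libraries. The summed CPM of 6 evening clock genes stood at 28.1 to 100.7 in mutant monosomal RNA and at 253 to 297 in control monosomal RNA. In mutant total RNA it had a median of 454 and a lowest library of 53.7, against 412 to 466 in control total RNA.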
